A study of Homo sapiens with 4 samples.

Results

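The genes described here encode the T-cell receptor complex and the proteins that act closest to it: the CD3 and zeta chains, coreceptors and other T-cell surface receptors, the first kinases, adaptors and enzymes of the cascade, the phosphatases and ubiquitin ligases that restrain it, and the BCL10-MALT1 and NFAT arms that lead to the nucleus. They were taken from a list of 37 symbols, each read by its brightest probe set among those annotated to that symbol alone, and 36 of the 37 could be read, out of 19775 genes with such a probe set. GRAP2, an adaptor, is named for no probe set in the annotation used and was not analysed here. All RNA came from Jurkat, a human T-cell acute lymphoblastic leukemia line. Cells were transfected with 100 nM of a LEF1 siRNA pool (siLEF1, 2 arrays) or with 100 nM of a non-targeting siRNA pool (siNT, 2 arrays), both with HiPerFect reagent, and RNA was taken after 24 h. The sample labels call the replicates biological, number them 1 and 2 in each group and do not say whether the cultures were grown or transfected apart, so the p-values measure the spread between these samples. The comparison asks which of these genes changed when LEF1 was knocked down in a single cell line, and cells without transfection were not analysed here.

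The T-cell receptor recognizes antigen with its alpha and beta chains and signals through the CD3 and zeta chains, whose tails are phosphorylated by the kinase LCK. ZAP70 then binds the phosphorylated tails and phosphorylates the adaptors LAT and SLP-76, on which PLCG1 and VAV1 assemble. Calcium, RAS and protein kinase C theta carry the signal on to NFAT, ERK and NF-kB, and phosphatases and E3 ubiquitin ligases end it. LEF1 and the related factor TCF7 act during thymocyte development, and Jurkat cells have long served to study this cascade.

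Of the 36 genes, 2 were called lower after siLEF1 and 0 were called higher, where 0.263% and 0.0657% of all genes were. The list was chosen with earlier results of these data known, so these shares are no test of it. Both lower genes restrain receptor signaling. CBLB, an E3 ubiquitin ligase, was 3.40-fold lower, and PTPN22, a tyrosine phosphatase that acts on LCK and ZAP70, was 3.09-fold lower. Both passed narrowly (limma adjusted p = 0.0404 and 0.0454). Both calls were lost when dim probe sets were left out before adjustment, and also in an F test without moderation. CD69, a surface antigen that appears early after activation, came next with a value 2.40-fold lower that did not pass. The CD3, zeta and LCK genes had values above 0 that did not pass, the highest that of CD3G, although CD3D was below 0 with housekeeping centring and CD3D and CD3E were below 0 without siNT replicate 2. In 30 of the 36 genes the siNT replicates themselves differed in the same direction, replicate 2 lying under replicate 1.

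Signals are given as the authors deposited them, RMA values on the log2 scale, where a difference of 1 is a 2-fold change. A call needed a change of more than 2-fold and a limma p that stayed under 0.05 once adjusted, with p-values adjusted over all 54613 probe sets. Each of the 4 arrays had a median signal of 4.84 or 4.85. Over all probe sets the replicates differed by a median of 0.147 for siLEF1 and 0.206 for siNT. The brightest LEF1 probe set had signals of 11.24 and 11.56 after siLEF1 against 12.30 and 11.92 after siNT, which do not overlap, and its log2 fold change of -0.71 did not pass (limma adjusted p = 0.191). A measure of RNA quality moved with the groups, since the 5′ minus 3′ signal of the ACTB control probe sets was -1.08 and -1.55 after siLEF1 against -1.80 and -1.95 after siNT. That of GAPDH was -0.34 and -0.32 against -0.39 and -0.65, and the part of RNA quality in the results below was not tested. T-lineage markers were measured for 10 of 12 genes, none of them under the median on every array, and their mean signal was 9.52 and 9.55 after siLEF1 against 9.34 and 8.95 after siNT. Of these 10 markers 7 are themselves among the 36 genes. Markers of B, myeloid, NK, epithelial and stromal cells had mean signals between 4.33 and 5.65 on every array. These means hide a spread. Under the median on all arrays were 3 of 8 B, 3 of 7 myeloid, 2 of 7 NK, 3 of 6 epithelial and 4 of 6 stromal markers measured. Some others were bright, with means after siLEF1 and siNT of 8.52 and 8.41 for COL1A1 and 8.06 and 8.02 for PRF1. For the NK marker NKG7 these means were 7.56 and 7.07, for the B marker BLK 7.16 and 7.11, and for KRT18 6.81 and 7.41. Erythroid markers, of which 4 of 6 were measured, had mean signals of 5.99 and 5.83 after siLEF1 against 6.68 and 6.30 after siNT, and their part in the results was not tested. With 2 arrays per group, 2% of simulated probe sets changed 2-fold and 81.8% of those changed 4-fold were called under this rule, which itself asks for more than 2-fold. At an unadjusted p under 0.05, 97.6% of those changed 2-fold were found. The simulation drew errors independently for each probe set, with the same spread in both groups. In the 36 genes the siNT replicates differed by a median of 0.39 and the siLEF1 replicates by 0.08, mostly in a shared direction for siNT. The simulated shares need not hold for these genes.

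**Figure D1:**
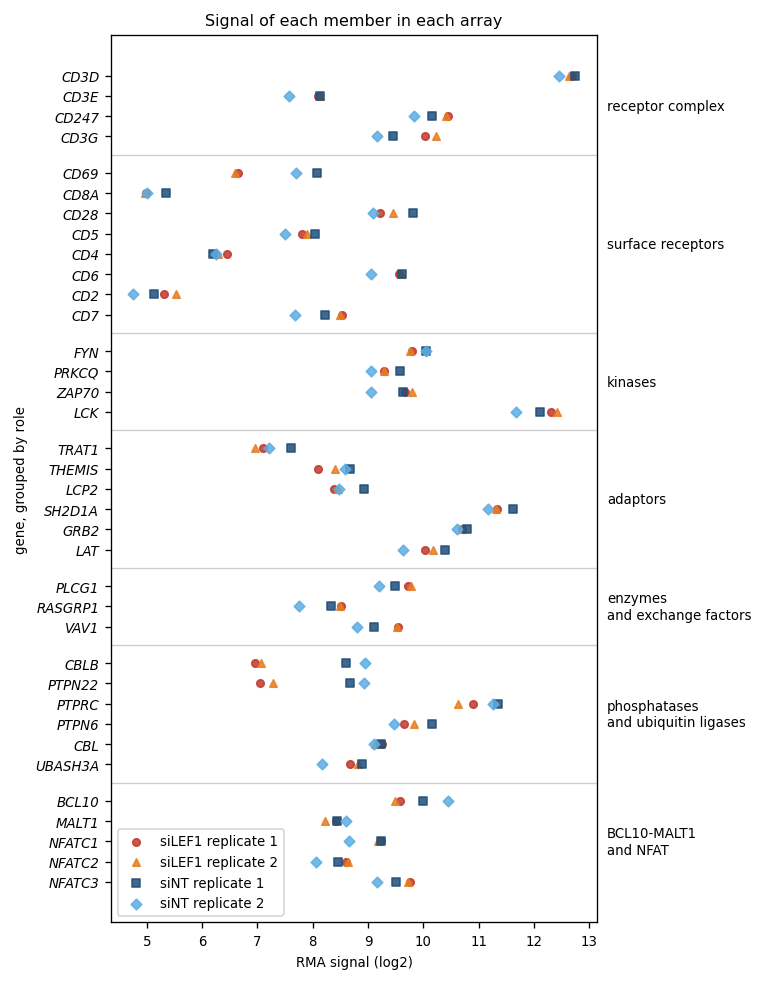
The log2 RMA signal (horizontal axis) of each of the 36 genes (rows, grouped by role) is drawn per array, with siLEF1 replicates 1 and 2 as circles and triangles and siNT replicates 1 and 2 as squares and diamonds. CBLB, PTPN22 and CD69 have both siLEF1 arrays far to the left of both siNT arrays, and in most other genes siNT replicate 2 lies left of siNT replicate 1.

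The 2 genes called lower are 5.56% of the 36, a list chosen with earlier results of these data known. The shares below therefore describe the list and do not test it. Of all 19775 genes 0.263% were called lower and 0.0657% higher, and of the 10324 genes with a mean signal of at least 6, to which 34 of the 36 belong, 0.281% and 0.0872%. At an unadjusted p under 0.05 from limma, 5 of the 36 were lower and 7 were higher, which is 13.9% and 19.4%. All genes gave 11.5% and 7.00%, and bright genes 16.1% and 10.7%. This split depended on the scaling and on the siNT arrays. With housekeeping centring 11 of the 36 were lower and 1 higher, where all genes gave 27.6% and 1.38%. Without siNT replicate 1 the counts were 4 and 16 (all genes 14.2% and 13.6%), and without siNT replicate 2 they were 7 and 2 (all genes 9.99% and 3.81%). The arrays of the groups did not overlap in 23 of the 36 genes, 11 lower and 12 higher. These are 63.9%, 30.6% and 33.3% of the 36, where all genes gave 54.5%, 26.4% and 28.1% and bright genes 67.6%, 35.3% and 32.3%. The counts without overlap are thus near the background. The median log2 fold change over the 36 was 0.07, and over all genes it was 0.02. Centring each array on housekeeping genes moved every log2 fold change by about the same amount, taking the median of all probe sets from 0.04 to -0.22 and that of the 36 genes to -0.19. The signs of small positive values therefore depend on the scaling. The centring value was the median signal of housekeeping genes of unlike brightness, 12.65 and 12.62 after siLEF1 against 12.38 and 12.37 after siNT. TFRC and PSMB4 lay around that median in siLEF1 replicate 1, and YWHAZ and PGK1 in siNT replicate 1. The log2 fold changes of the housekeeping genes themselves ran from -0.73 to 0.68. The shift thus rests in part on which genes lie at the median and need not be a change of these genes.

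**Figure D2:**
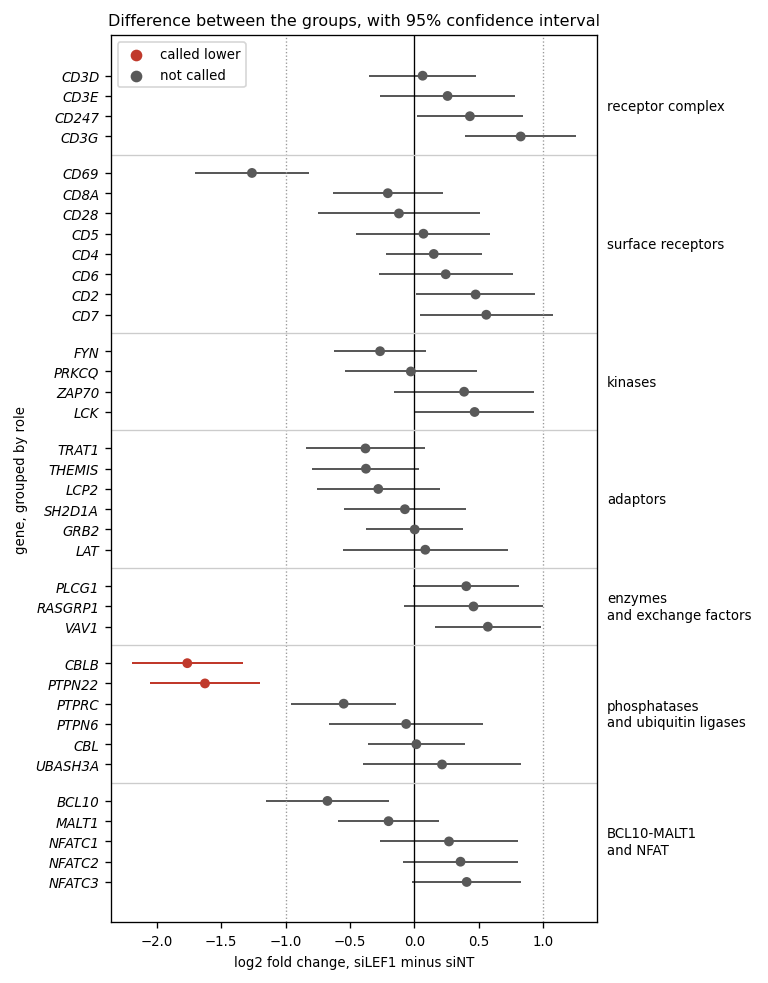
Log2 fold change, siLEF1 minus siNT (horizontal axis), of the 36 genes by role, with bars for the 95% confidence interval from limma and dotted lines at a 2-fold change. CBLB and PTPN22, in red, are the genes called lower, and their intervals end at -1.34 and -1.21.

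CBLB and PTPN22 were the genes of the list that passed, and the sequence before their starts is shown because LEF1 binds DNA. CBL-B attaches ubiquitin to signaling proteins and raises the threshold of activation, above all where CD28 is not engaged. PTPN22 has 1 listed start in RefSeq, and the 250 bases before it (GRCh38.p14, chr1:113871713-113871962, minus strand) hold neither CTTTGA nor CTTTGT on either strand, the letters searched for the LEF/TCF motif. Capitals mark the RUNX letters, TGTGGT or their reverse complement, whose 3 matches begin at -210, -92 and -36, counted from the start. CBLB has 5 listed starts, and the windows before the inner pair hold the LEF/TCF letters, while those before the other 3 do not. The window before its outermost start (chr3:105869402-105869651, minus strand) holds no match to any motif searched. The innermost start has 2 LEF/TCF matches, from -107 to -102 and from -15 to -10, shown in capitals within 30 bases each (chr3:105868409-105868438 and chr3:105868320-105868349, minus strand). The windows of the inner pair overlap. The match before the other start of that pair, from -45 to -40, is the outer of these 2 matches and not a further one.
PTPN22 before the start: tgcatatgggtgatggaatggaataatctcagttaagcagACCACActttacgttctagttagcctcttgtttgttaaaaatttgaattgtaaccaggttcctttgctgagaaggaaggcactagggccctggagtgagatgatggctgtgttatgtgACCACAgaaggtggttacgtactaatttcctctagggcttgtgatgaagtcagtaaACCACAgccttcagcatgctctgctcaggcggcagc
CBLB before the outermost start: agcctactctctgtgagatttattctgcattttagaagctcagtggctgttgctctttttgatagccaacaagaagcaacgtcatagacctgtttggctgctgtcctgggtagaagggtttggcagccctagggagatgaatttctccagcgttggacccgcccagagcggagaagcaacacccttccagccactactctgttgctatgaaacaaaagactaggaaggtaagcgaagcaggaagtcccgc
CBLB, outer match: acgggagggacaCTTTGTcccctcccagtc
CBLB, inner match: cacaggcgtcctgaaACAAAGctttgggtt

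These matches describe letters and not bound sites. RefSeq windows of 250 bases were at hand for 27 of the 36 genes, CD69 and CD3G not among them. The LEF/TCF letters occurred before at least 1 start of 9 of the 27, and in 15 of their 46 windows (32.6%), beside 22.8% of all 35116 windows in the table. Windows of 1 gene can overlap, and 2 of the 15 are those of CBLB, while FYN and THEMIS each gave more than CBLB. The share of windows thus leans on a few genes. No share per gene was computed over all genes, so the 9 of the 27 have no background beside them. The RUNX letters occurred in 7 of the 46 windows (15.2%, all windows 11.0%), and the AP-1 letters TGANTCA in 1 (2.17%, all windows 6.57%), that of LAT.

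The signals of CBLB were 6.95 and 7.06 after siLEF1 against 8.60 and 8.94 after siNT. Its log2 fold change was -1.76 ± 0.17 (SE, limma adjusted p = 0.0404). Those of PTPN22 were 7.05 and 7.29 against 8.67 and 8.92, with a log2 fold change of -1.63 ± 0.17 (SE, limma adjusted p = 0.0454). In both genes the distance between the groups was several times that between replicates, and siNT replicate 2 was the higher of the siNT arrays, unlike in most genes of the list. In bulk RNA, fewer cells with a transcript and less of it per cell cannot be told apart. With siNT replicate 2 or either siLEF1 array left out, neither gene was called, at adjusted p-values of 0.106 to 0.684 from limma, while the log2 fold changes stayed between -1.82 and -1.50. In those 3 fits limma called 0 probe sets of the whole array, with 3688 to 6232 at an unadjusted p under 0.05. The call of CBLB was also lost with the mean of all its probe sets (log2 fold change -0.94). Both calls were lost when dim probe sets were left out before adjustment (limma adjusted p = 0.0655 and 0.0666) and in an F test without moderation (0.598 for both).

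The other genes that restrain or tune the receptor did not pass. PTPRC encodes CD45, the phosphatase that keeps LCK ready to act, and had signals of 10.89 and 10.63 after siLEF1 against 11.36 and 11.26 after siNT. Its arrays did not overlap, and its log2 fold change was -0.55 ± 0.16 (SE, limma adjusted p = 0.207). PTPN6, the phosphatase SHP-1, had signals of 9.65 and 9.84 against 10.15 and 9.47, so that both siLEF1 arrays lay between the siNT arrays. CBL, the close relative of CBLB, had a log2 fold change of 0.02 with a 95% confidence interval of -0.35 to 0.38, which leaves out a change of the size seen in CBLB. Its value was below 0 with housekeeping centring (-0.24). UBASH3A, which lowers receptor signaling in T cells, had a log2 fold change of 0.22 that was -0.04 with that centring, and its siNT arrays, 8.88 and 8.17, lay on either side of both siLEF1 arrays, 8.67 and 8.82.

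Among surface receptors, CD69 had signals of 6.65 and 6.60 after siLEF1 against 8.07 and 7.70 after siNT. The groups lay far apart, and its log2 fold change was -1.26 ± 0.18 (SE, limma adjusted p = 0.0692), just outside the threshold. It passed at 1 probe set per gene (limma adjusted p = 0.0429) and with housekeeping centring (0.0248), and over all alternatives its adjusted p ran from 0.0205 to 0.723. CD7, a marker of the T lineage, had signals of 8.53 and 8.50 after siLEF1 against 8.23 and 7.68 after siNT, and a log2 fold change of 0.56 ± 0.21 (SE, limma adjusted p = 0.285). For CD2, the adhesion receptor that binds CD58, the signals were 5.31 and 5.52 against 5.13 and 4.75, close to the array median, and the log2 fold change was 0.48 ± 0.19 (SE, limma adjusted p = 0.301). In CD7 and CD2 both siLEF1 arrays were above both siNT arrays.

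The coreceptors CD4 and CD8A, which bring LCK to the receptor, had log2 fold changes of 0.15 and -0.21. CD4 had signals of 6.45 and 6.29 after siLEF1 against 6.19 and 6.25 after siNT, and its value was -0.10 with housekeeping centring. CD8A was dim, at 4.98 and 4.97 against 5.35 and 5.01. CD28, the main costimulatory receptor, had signals of 9.21 and 9.46 in siLEF1 cells, between the siNT signals of 9.81 and 9.09. The scavenger-type receptors CD5 and CD6, which dampen receptor signaling, had log2 fold changes of 0.07 and 0.24, and -0.18 and -0.01 with housekeeping centring. In both genes the siNT arrays differed from each other by 0.55, and the siLEF1 arrays lay between them.

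The 4 chains of the signaling complex had values above 0 in the deposited scaling, CD3D not with housekeeping centring, and none passed. CD3G, the gamma chain, had signals of 10.04 and 10.23 after siLEF1 against 9.46 and 9.16 after siNT. Its log2 fold change was 0.83 ± 0.17 (SE, limma adjusted p = 0.123), the highest of the 36 genes, and it was 0.57 with housekeeping centring. CD247, the zeta chain, had signals of 10.44 and 10.41 against 10.15 and 9.84, and a log2 fold change of 0.43 ± 0.17 (SE, limma adjusted p = 0.296). The arrays of the groups did not overlap in these 2 chains and overlapped in the other 2. CD3E had signals of 8.10 and 8.13 in siLEF1 cells, next to 8.13 in siNT replicate 1 and above 7.57 in replicate 2. CD3D had signals of 12.69 and 12.63 between the siNT signals of 12.74 and 12.44. The log2 fold change of CD3D was 0.07, with a 95% confidence interval of -0.34 to 0.47, and it was -0.19 with housekeeping centring. Whether the chains differed from each other in their change was not tested.

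Of the kinases, LCK, which starts the cascade, had signals of 12.30 and 12.42 after siLEF1 against 12.10 and 11.68 after siNT. These do not overlap, and its log2 fold change was 0.47 ± 0.19 (SE, limma adjusted p = 0.309). A second LCK probe set had signals of 11.27 and 11.21 against 10.69 and 10.42 and a log2 fold change of 0.68 (limma adjusted p = 0.150). FYN, the other SRC-family kinase of T cells, had signals of 9.80 and 9.76 after siLEF1 against 10.04 and 10.05 after siNT, a log2 fold change of -0.27 between replicates that nearly coincided. ZAP70 had signals of 9.66 and 9.80 against 9.63 and 9.06, and a log2 fold change of 0.39 whose 95% confidence interval ran from -0.15 to 0.92. PRKCQ, protein kinase C theta, had signals of 9.29 and 9.30 in siLEF1 cells, between 9.59 and 9.05 in siNT cells. No kinase passed.

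In the deposited scaling none of the 6 adaptors measured had an unadjusted p under 0.05 from limma. With housekeeping centring LCP2 (-0.54), THEMIS (-0.63) and TRAT1 (-0.64) did, where 27.6% of all genes were lower at that threshold. LAT, the membrane scaffold that ZAP70 phosphorylates, had signals of 10.03 and 10.17 in siLEF1 cells, between the siNT signals of 10.39 and 9.63. LCP2, which encodes SLP-76, had signals of 8.39 and 8.45 against 8.93 and 8.47 and a log2 fold change of -0.28. GRB2, the adaptor that brings SOS to RAS, had a log2 fold change of 0.00 with a 95% confidence interval of -0.37 to 0.37. THEMIS, which is needed for positive selection of thymocytes, had signals of 8.10 and 8.40 against 8.68 and 8.58 and a log2 fold change of -0.38. TRAT1, a transmembrane adaptor that associates with the receptor, had signals of 7.10 and 6.95 against 7.60 and 7.20, also with a log2 fold change of -0.38. In LCP2, THEMIS and TRAT1 both siLEF1 arrays lay under both siNT arrays. SH2D1A, the adaptor SAP of SLAM receptors, had a log2 fold change of -0.07.

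The 3 enzymes and exchange factors downstream of LAT and SLP-76 each had both siLEF1 arrays above both siNT arrays, and none passed. VAV1, which activates RAC, had signals of 9.54 and 9.52 after siLEF1 against 9.11 and 8.81 after siNT. Its log2 fold change was 0.57 ± 0.17 (SE, limma adjusted p = 0.201). PLCG1, the phospholipase that sets off the calcium signal, had signals of 9.72 and 9.78 against 9.49 and 9.20 and a log2 fold change of 0.40 ± 0.17 (SE, limma adjusted p = 0.318). RASGRP1, which activates RAS on diacylglycerol, had signals of 8.50 and 8.49 against 8.33 and 7.75 and a log2 fold change of 0.46. In each of the 3 the siNT replicates were farther apart than the siLEF1 replicates.

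At the end of the NF-kB arm, BCL10, the adaptor that binds and activates MALT1, had signals of 9.59 and 9.50 after siLEF1 against 9.99 and 10.45 after siNT. Its groups did not overlap, and its log2 fold change was -0.67 ± 0.20 (SE, limma adjusted p = 0.197). MALT1, the paracaspase of that complex, had signals of 8.42 and 8.23 against 8.44 and 8.61 and a log2 fold change of -0.20. The NFAT genes had values above 0 that did not pass: 0.41 for NFATC3, 0.36 for NFATC2 and 0.27 for NFATC1. NFATC3 had signals of 9.76 and 9.73 against 9.50 and 9.17, and NFATC2 of 8.59 and 8.64 against 8.45 and 8.06, without overlap in either. NFATC1 had signals of 9.24 and 9.19 in siLEF1 cells, near the 9.23 of siNT replicate 1 and above the 8.65 of replicate 2.

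Of the values above 0, 9 were so against siNT replicate 2 and not against replicate 1. Replicate 2 was lower than siNT replicate 1 in 30 of the 36 genes (83.3%), where the same held for 51.0% of all genes and 59.3% of bright genes. The median of replicate 2 minus replicate 1 over all 36 genes was -0.38. The median size of the difference between the siNT replicates was 0.39 in the 36 genes, and between the siLEF1 replicates it was 0.08. Against siNT replicate 2 alone, the siLEF1 mean was higher in 25 of the 36, and the median difference over all 36 was 0.26. It was higher in 12 when set against siNT replicate 1, and the median was then -0.10. CD3E, CD3D, CD5, CD6, LAT, GRB2, UBASH3A, CBL and NFATC1 are above 0 against the mean of the siNT arrays and below 0 against replicate 1. CD28, PRKCQ, SH2D1A and PTPN6 are below 0 against the mean and above 0 against replicate 2. CBLB, PTPN22, CD69, BCL10, CD3G and VAV1 kept their sign against each siNT array, at -1.60 and -1.93 for CBLB, -1.50 and -1.75 for PTPN22, -1.45 and -1.07 for CD69, -0.44 and -0.90 for BCL10, 0.68 and 0.97 for CD3G and 0.42 and 0.72 for VAV1, in each case against replicate 1 and then replicate 2.

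**Figure D3:**
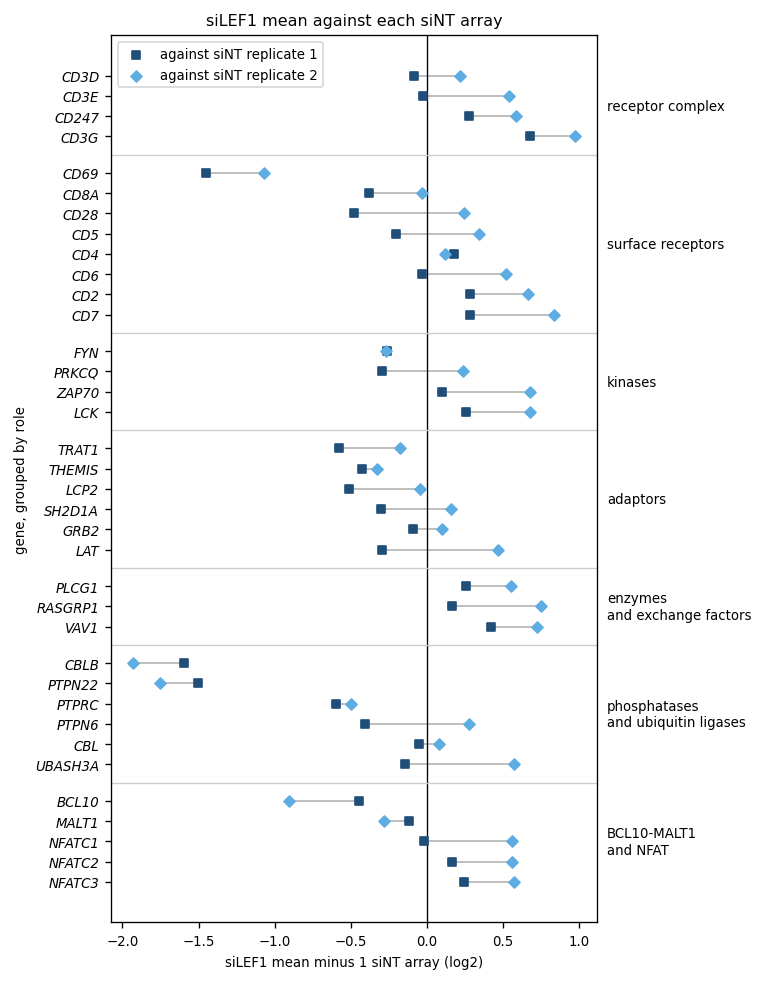
Mean of the siLEF1 arrays minus siNT replicate 1 (squares) and minus siNT replicate 2 (diamonds) on the log2 scale (horizontal axis), for the 36 genes by role, with a line joining the pair. The diamond lies to the right of the square in 30 genes, and the line crosses 0 in 13.

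Other probe sets of the same genes bear on the calls. The 36 genes had 97 probe sets of their own, 11 of the genes having a single one, and 46 of the 61 further probe sets had the sign of the brightest. Called lower were 4 of the 97 and called higher 0, where all probe sets of the array gave 0.183% and 0.0238%. For PTPN22 a second probe set passed, with signals of 3.84 and 4.43 after siLEF1 against 6.08 and 6.22 after siNT and a log2 fold change of -2.02 (limma adjusted p = 0.0456). Its siLEF1 signals lay under the array median, where the size of a change is uncertain. The next had signals of 6.56 and 6.78 against 8.22 and 7.95 and a log2 fold change of -1.42 (limma adjusted p = 0.0562). The last was under the lower quartile of every array, at -0.10. For CBLB the second probe set had signals of 5.16 and 5.20 against 6.23 and 6.08 and a log2 fold change of -0.97 (limma adjusted p = 0.0810), and the third, under the lower quartile of every array, had -0.09. The mean over all CBLB probe sets was less than 2-fold lower, at -0.94, so that CBLB was not called there.

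In PTPRC 1 dim probe set passed, with signals of 3.39 and 3.52 after siLEF1 against 5.05 and 5.02 after siNT and a log2 fold change of -1.58 (limma adjusted p = 0.0357). The second brightest, at 10.02 and 9.75 against 10.65 and 10.66, had one of -0.77 (limma adjusted p = 0.123) and the third brightest -0.19, so that the probe sets of this gene did not give 1 size of change. A dim probe set of BCL10 had signals of 3.87 and 4.14 after siLEF1 against 5.39 and 7.15 after siNT, a difference that did not pass (limma adjusted p = 0.141). In this and the dim PTPRC probe set the siLEF1 signals lay under the array median, so the size of either difference is uncertain. In NFATC1 the second brightest probe set had a value of the opposite sign, -0.55, with siLEF1 signals of 8.33 and 8.39 under siNT signals of 8.97 and 8.85. CBL held values from -0.57 to 0.44 in its 5 probe sets. All 6 NFATC3 probe sets were above 0, from 0.18 to 0.41, and all 4 of SH2D1A below it, from -0.12 to -0.04. Which transcripts or which part of a transcript each probe set reads was not analysed here.

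**Figure D4:**
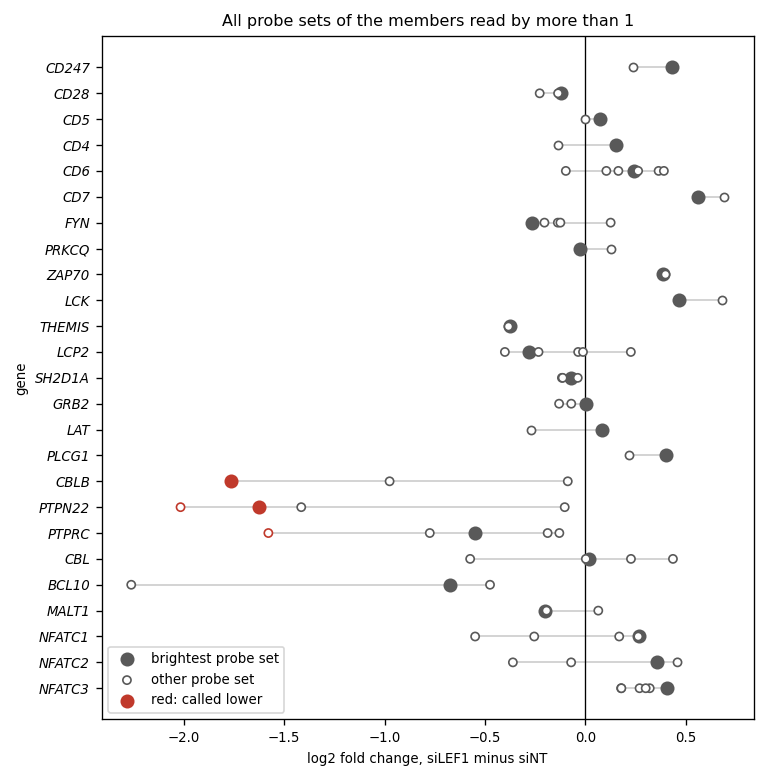
Log2 fold change, siLEF1 minus siNT (horizontal axis), of every probe set of the 25 genes read by more than 1, where large filled circles are the brightest probe set of a gene, small open circles the others, and red marks probe sets called lower. PTPN22 has 2 called probe sets, CBLB and PTPRC 1 each, and in CBL and NFATC1 the probe sets spread to both sides of 0.

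The wider pathway was read in 91 of 103 further genes, of which 0 were called by limma in either direction, with 12 lower and 9 higher at an unadjusted p under 0.05. These are 13.2% and 9.89%, near the 11.5% and 7.00% of all genes. Their median log2 fold change was -0.01. SH2D2A, the adaptor TSAd that binds LCK, had signals of 6.47 and 6.79 after siLEF1 against 8.35 and 8.01 after siNT, and a log2 fold change of -1.55 ± 0.20 (SE, limma adjusted p = 0.0562). ITCH, an E3 ubiquitin ligase that like CBLB restrains T cells, had signals of 7.90 and 8.11 against 9.04 and 9.69 and a log2 fold change of -1.36 ± 0.24 (SE, limma adjusted p = 0.0956). Among the other phosphatases and brakes, PTPN2 had a value of 0.59 and DOK1 one of -0.67. The remaining adaptors with the smallest p were LIME1 at 0.63 and FYB1 at 0.46.

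Genes that activation induces gave a median of -0.52 for the log2 fold changes of the 7 measured, with EGR1 at -1.40, NR4A3 at -1.34 and the dim IFNG at -0.45, none of which passed. Against siNT replicate 1 alone the median was -0.16, with EGR1 at -0.69 and NR4A3 at -0.66, and against replicate 2 alone it was -0.96, with EGR1 at -2.11 and NR4A3 at -2.02. In all 7 siNT replicate 2 was above replicate 1, by a median of 0.86, whereas it was below it in 30 of the 36 receptor genes. Among the steps to NF-kB, where the median was -0.21 over 9 genes, TRAF6 had a log2 fold change of -1.03, the deubiquitinase gene TNFAIP3 one of -0.64 and CSNK1A1 one of -0.50. Of the further calcium and NFAT genes, the inositol trisphosphate receptors ITPR2 and ITPR3 had values of 1.00 and 0.81 and NFAT5 one of -0.53. SYK, the relative of ZAP70, had 1.01, while the kinases TXK and CSK had 0.37 and 0.14. In the RAS to ERK step, SOS2 had a log2 fold change of -0.55, HRAS one of 0.41 and MAP2K2 one of 0.35. Costimulatory and inhibitory receptors included ICOS at -0.74, LY9 at -0.47 and the dim BTLA at -0.26. The actin regulators ARHGEF6, DOCK2 and RHOH had 0.57, 0.49 and -0.19. Of the receptor chains TRBC1, CD8B and PTCRA had 0.24, 0.17 and 0.11.

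**Figure D5:**
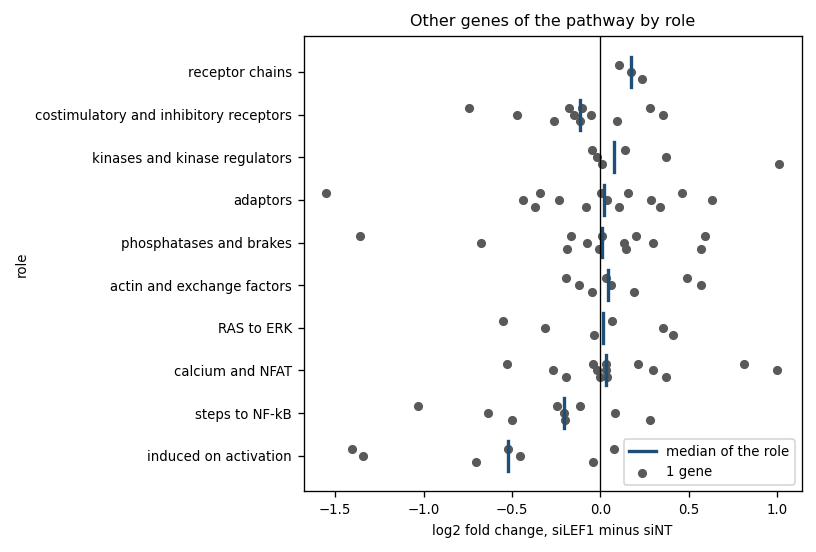
Log2 fold change, siLEF1 minus siNT (horizontal axis), of the 91 further pathway genes by role, with 1 point per gene and a vertical bar at the median of the role. No gene was called, and SH2D2A and ITCH lie farthest left among the adaptors and the phosphatases and brakes, at -1.55 and -1.36.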

How the data were processed

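RNA of 4 samples was hybridized by the authors to HG-U133 Plus 2.0 arrays, and RMA in Affymetrix Expression Console, listed as version 1.1 by the submitters' processing notes, gave the deposited log2 signals, unfiltered. Whether other arrays shared the RMA run is not stated. From these values 54613 probe sets were compared (siLEF1 minus siNT, 62 controls left out) with limma 3.58.1 in R 4.3.3, 2-sided, with Benjamini-Hochberg adjustment. Symbols came from the platform annotation, updated by Entrez number. Of the probe sets 41091 had 1 symbol, 1801 several and 11721 none listed. The methods of the study compare 3 groups and here 2 were at hand. The genes and lists were chosen with earlier results of these data known. Full statistics are given for the 12 genes of the list with the smallest p, and of the wider pathway the 3 per role with the smallest p are named. In the wider pathway 1 further gene is not reported here. Markers were listed for 7 lineages, T cells included. Same-numbered replicates were not taken as pairs, since the labels give only the number and no shared batch. The fit was checked on data simulated for as many probe sets. Promoter sequences are from RefSeq (GRCh38.p14). Alternatives were a signal filter at 6, an intensity trend, an F test without moderation, a replicate block, centring, other probe set choices, other fold thresholds and each array left out. The number of arrays limits precision.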

Additional observations from a re-analysis of the deposited data

How the results depend on the processing

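The count of called receptor genes stayed at 2 or 3 under 9 of 11 alternatives run on all 4 arrays, though with the mean of all probe sets the 2 were PTPN22 and CD69 and not CBLB, and was 0 with the filter at a mean signal of 6 (limma, with 11 of 34 at an unadjusted p under 0.05) and 0 in the F test without moderation (5 of 36 unadjusted). Leaving out 1 array gave 0 to 3, with 3 without siNT replicate 1 and 0 without any of the others. With the replicate block it was 3, since CD69 was called besides CBLB and PTPN22, and no call was lost. Deviations of same-numbered arrays correlated at -0.15, and with the numbers crossed, an alternative chosen after seeing the data, the count was also 3. Of the wider pathway 0 genes were called, but 2 with the replicate block, 2 with the numbers crossed and 2 with housekeeping centring (SH2D2A and ITCH each time), 1 with 1 probe set per gene, 1 with the mean of all probe sets (SH2D2A both times) and 0 to 6 with 1 array left out. The 6, without siNT replicate 1, were SYK, ITCH, ITPR2, TRAF6, EGR1 and NR4A3. The median over the 36 genes lay between -0.19 and 0.26.

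Of 461 single-gene values under alternatives, 416 kept direction and side of the threshold, 11 lost a call, 5 gained one (all CD69) and 29 turned sign. With housekeeping centring the log2 fold change was -0.19 for CD3D, -0.10 for CD4, -0.18 for CD5, -0.011 for CD6, -0.17 for LAT, -0.25 for GRB2, -0.040 for UBASH3A and -0.24 for CBL. Without probe sets ending in _x_at or _s_at it was 0.065 for MALT1. With the mean of all probe sets it was 0.051 for PRKCQ, -0.092 for LAT, -0.066 for GRB2 and -0.020 for NFATC1. With 1 array left out it ran from -0.085 to 0.21 for CD3D, -0.022 to 0.54 for CD3E, -0.20 to 0.34 for CD5, -0.031 to 0.52 for CD6, -0.48 to 0.24 for CD28, -0.29 to 0.24 for PRKCQ, -0.30 to 0.47 for LAT, -0.092 to 0.10 for GRB2, -0.30 to 0.16 for SH2D1A, -0.40 to 0.28 for PTPN6, -0.14 to 0.57 for UBASH3A, -0.049 to 0.081 for CBL and -0.018 to 0.56 for NFATC1. Over the whole array 100 probe sets were called lower and 13 higher, but 4 and 1 with the signal filter, 977 and 120 with the replicate block and 1399 and 26 with housekeeping centring. The causes were not tested. With 2 arrays a group, most simulated 2-fold changes were not called at the adjusted threshold with its fold limit.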
